A study of Mus musculus with 6 samples.

Results

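The proteasome genes of the array were taken as all probes whose gene symbol in the platform annotation begins with Psm, a letter from a to g and a number. The rule matched 86 of 45281 probes, for 49 of the 19057 genes that the annotation names. Psmc3ip, a partner of meiotic recombinases, and Psme3ip1, which binds the activator Psme3, matched by name alone and are not subunits, so 47 proteasome genes were described. RNA came from sciatic nerve at postnatal day 14 of 3 mutant samples, which carry the P0-Cre transgene and a Dicer allele labelled "F or N", and of 3 samples of control littermates, each on 1 Mouse WG-6 version 2 bead array. The sources used here explain neither "F or N" nor the littermates' own alleles, name both sexes for every sample, and do not say if an array held 1 animal or a pool, so the p-values cover only the scatter of these arrays, part of which may be technical. The P0 promoter is active in the Schwann lineage, while whole nerve also holds fibroblasts, endothelium and immune cells. The labels name sciatic nerve throughout, although the design text mentions cultured cells.

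The proteasome is the large protease that degrades proteins marked with ubiquitin. Its core is a barrel of 4 stacked rings, the outer pair built of alpha subunits that gate the entry and the inner pair of beta subunits, 3 kinds of which cut peptide bonds. A cap made of an ATPase base and a lid recognises ubiquitin, removes it and unfolds the substrate, and alternative activators can take the place of the cap. Interferon replaces the cutting subunits with immune forms that favour peptides for class I presentation. In Schwann cells the proteasome is known for degrading much of the newly made Pmp22, a myelin protein that folds poorly.

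The deposited values run from a floor of 7.96 to 15.91 on what looks like a log2 scale, though the transform could not be pinned down, and differences are mutant minus control on that scale. As many probes as the design text kept by present calls, the 18420 brightest on average, were tested with limma, and a probe was called at a Benjamini-Hochberg adjusted p under 0.05 over all of them. Each gene is read by its brightest tested probe. Levels of different probes cannot be set against each other. Correlations over the tested probes were 0.973 to 0.993 among mutant arrays, 0.992 to 0.995 among control arrays and 0.912 to 0.942 between the groups. Dicer1, which encodes the nuclease that cuts microRNA precursors, differed by -0.02 at its brightest probe (limma adjusted p = 0.832) and fell by 0.20 at a dimmer one (0.0458), and where these probes lie relative to the deleted part is unknown, so they do not check the genotype. Mutant replicate 1 stood apart from the other mutant arrays in many of the genes below, and the main counts are therefore given with and without it.

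Of the 47 proteasome genes, 41 had a tested probe, and 9 of these 41 (22.0%) were called, 5 higher and 4 lower in mutants. Over all 10273 tested genes, 39.6% were called, 22% higher and 17.6% lower. By probe, 12 of the 69 tested proteasome probes were called, 6 in each direction, against 35.8% of all tested probes (19.9% higher and 15.9% lower). With all probes tested and no filter, 3 of the 41 genes were called higher and 4 lower. Of all 45281 probes 14.1% were then called (7.95% higher and 6.15% lower). That share counts probes, many of them near the floor, so the gene counts cannot be measured against it. No tested proteasome gene changed 2-fold if the scale is plain log2, the largest difference being 0.62. The median size of the difference, regardless of sign, was 0.156 for the proteasome genes and 0.201 for all tested genes, and the signed medians were -0.03 and 0.01. The groups did not overlap in 13 of the 41 genes (31.7%), 5 higher and 8 lower in mutants, against 55.2% of all tested genes (29.7% higher and 25.5% lower). The genes that rose were the activator genes Psme4 and Psme3, the lid gene Psmd12 and the base ATPase genes Psmc2 and Psmc4, and those that fell were the lid genes Psmd8 and Psmd7, the chaperone gene Psmd10 and the ATPase gene Psmc5. None of the 12 tested genes of the constitutive core was called (0 at an unadjusted p under 0.05 in limma). Without mutant replicate 1, 15 of 41 were called (36.6%), 11 higher and 4 lower, against 45.4% of all tested genes (24.4% higher and 21% lower), and 5 of the 11 were core genes. That array lay below both other mutant arrays in 11 of the 12 core genes, so leaving it out had to raise their differences.

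Upstream regions are shown for the called genes that rose most (Psme4, Psmd12) and fell most (Psmd8, Psmd10), to set them beside their regulatory sequence, and for Psmb5, a cutting subunit gene. Each is the 250 bases before the annotated start, 5′ to 3′ on the gene's strand, from RefSeq on GRCm38.p6, and capitals mark matches on either strand to the CCAAT box (CCAAT) and the antioxidant response element core (TGACNNNGC).
Psme4 (chr11:30771525-30771774, plus strand): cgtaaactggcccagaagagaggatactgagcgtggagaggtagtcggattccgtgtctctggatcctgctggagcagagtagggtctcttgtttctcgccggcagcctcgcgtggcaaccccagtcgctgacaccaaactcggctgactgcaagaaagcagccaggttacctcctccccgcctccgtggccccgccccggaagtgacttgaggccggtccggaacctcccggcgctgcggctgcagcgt
Psmd12 (chr11:107479278-107479527, plus strand): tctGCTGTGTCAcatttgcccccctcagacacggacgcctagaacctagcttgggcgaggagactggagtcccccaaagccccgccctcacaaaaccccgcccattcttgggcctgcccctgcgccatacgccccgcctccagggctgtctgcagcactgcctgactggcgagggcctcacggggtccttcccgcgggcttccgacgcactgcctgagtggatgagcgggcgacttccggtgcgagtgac
Psmd8 (chr7:29180674-29180923, minus strand): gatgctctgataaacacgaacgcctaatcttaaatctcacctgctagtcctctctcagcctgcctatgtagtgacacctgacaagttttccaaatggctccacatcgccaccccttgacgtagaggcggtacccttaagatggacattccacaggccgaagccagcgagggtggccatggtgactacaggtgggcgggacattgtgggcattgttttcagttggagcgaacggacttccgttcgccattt
Psmd10 (chrX:140956712-140956961, minus strand): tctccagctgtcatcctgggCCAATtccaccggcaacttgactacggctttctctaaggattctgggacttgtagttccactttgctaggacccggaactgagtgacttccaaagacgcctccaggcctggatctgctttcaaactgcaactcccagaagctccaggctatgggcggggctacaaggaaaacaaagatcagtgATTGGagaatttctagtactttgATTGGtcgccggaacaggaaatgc
Psmb5 (chr14:54617996-54618245, minus strand): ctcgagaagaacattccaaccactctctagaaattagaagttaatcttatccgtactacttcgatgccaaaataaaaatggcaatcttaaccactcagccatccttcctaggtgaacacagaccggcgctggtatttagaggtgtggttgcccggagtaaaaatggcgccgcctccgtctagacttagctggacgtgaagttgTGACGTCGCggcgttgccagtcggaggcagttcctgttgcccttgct

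Psme4 and Psmd8 hold no match in this window. Psmd12 holds an antioxidant response element core at position -247 from the start, on the minus strand of the gene, and Psmb5 holds one at -47. Psmd10 holds 3 CCAAT boxes, and none of the others shown holds one. The RefSeq promoter table held 39 of the 47 proteasome genes. The antioxidant response element core was found in 12.8% of these genes (Psmb5, Psmb6, Psmc6, Psmd9 and Psmd12) and in 11.5% of all 27025 genes in the table, and the CCAAT box in 35.9% and 37.5%. By role, the CCAAT box was most frequent in the alpha ring, in 5 of 7 genes. It was found in 2 of 4 immune, 2 of 5 base ATPase and 1 of 3 other base genes. Of the constitutive beta ring 1 of 4 genes held it, of the lid 1 of 6 and of the activators 1 of 4. Of the base chaperones 1 of 3 held it, and of the core assembly chaperones 0 of 3. A match is a description of letters and not a binding site.

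**Figure D1:**
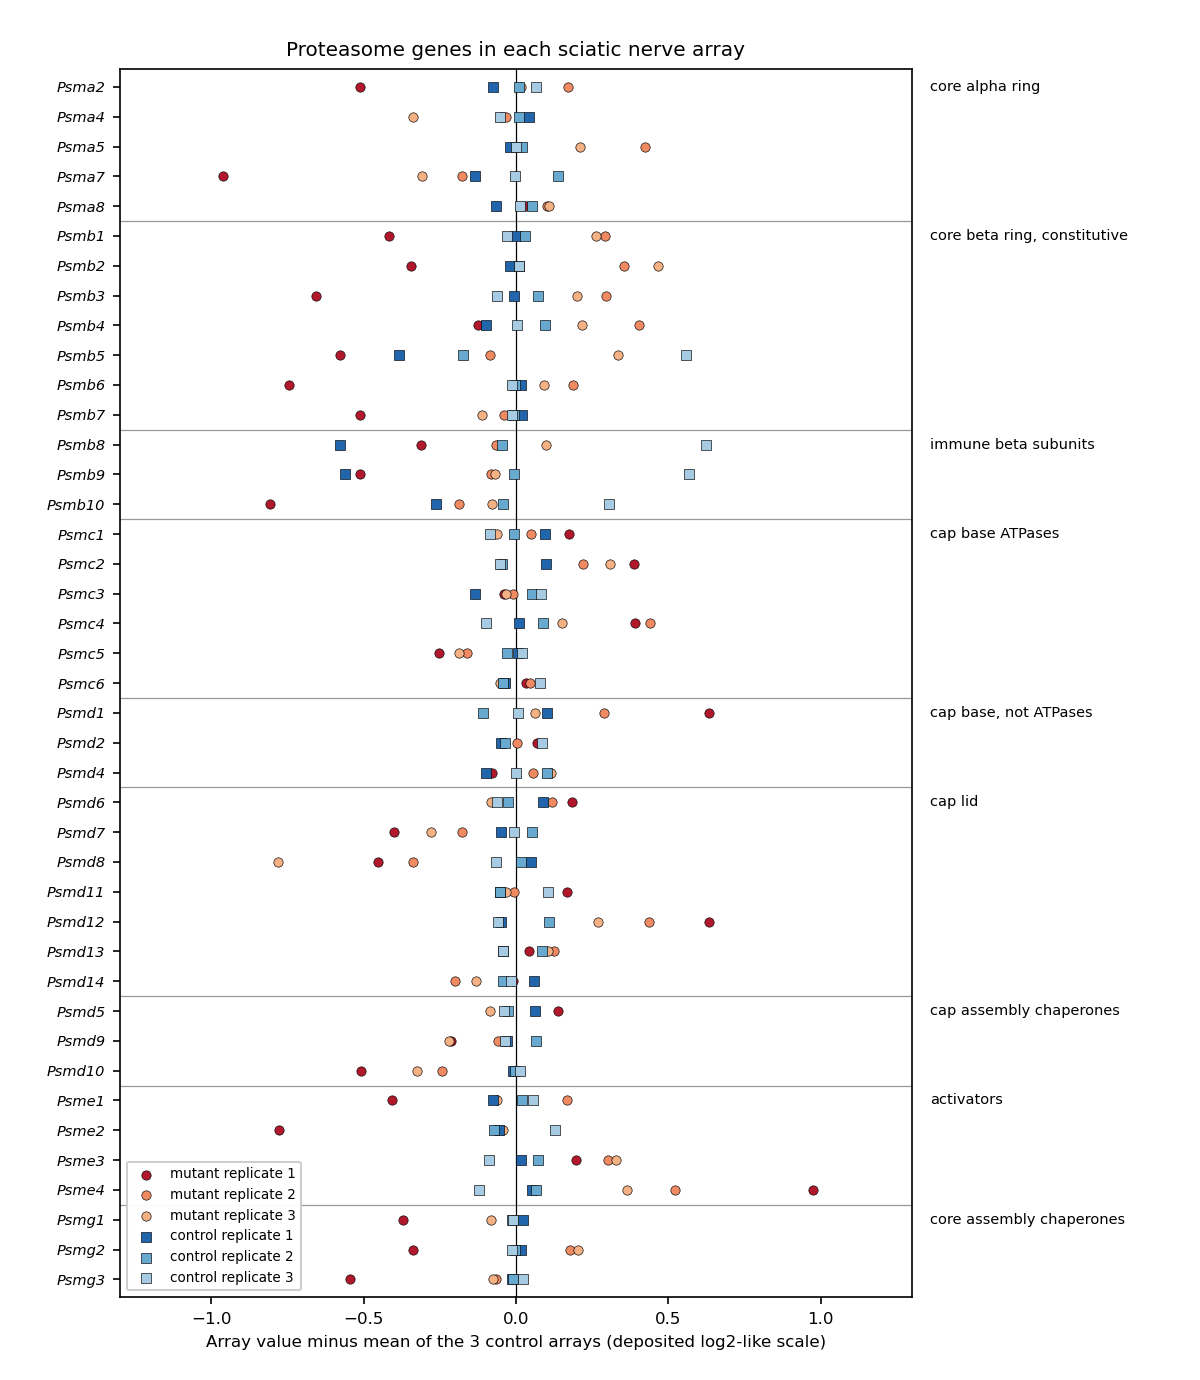
Value of each tested proteasome gene in each array minus the mean of the 3 control arrays, on the deposited log2-like scale, with circles for mutant and squares for control arrays and genes grouped by role. Mutant replicate 1 lies left of every other array in all 7 constitutive beta genes, and the control arrays spread widely in Psmb5 and the immune subunits.

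The alpha ring, which closes the ends of the barrel, was read by 5 of its 8 genes. Psma1, Psma3 and Psma6 lay near the floor, at 8.07, 8.12 and 8.06 in mutants and 8.08, 8.14 and 8.04 in controls, and were not tested. Such readings do not show that a gene is silent. A second Psma5 probe also lay near the floor, at 8.17 in mutants and 8.20 in controls, while the brightest averaged 13.49 and 13.28. Psma7 had 10.80, 11.59 and 11.45 in mutants and 11.63, 11.90 and 11.76 in controls. All mutant arrays were lower, mutant replicate 1 by far the most. Its difference of -0.48 (SE 0.203) was not called (limma adjusted p = 0.112), was called with the replicate number as a block (0.0368), and was -0.24 without mutant replicate 1 (0.0675). A second Psma7 probe gave -0.46 (0.105), and it was called lower with the block (0.0466) and without mutant replicate 1 (0.0492). Psma5 had 13.28, 13.70 and 13.48 in mutants and 13.26, 13.29 and 13.28 in controls. Here mutant replicate 1 lay among the controls, and the difference of 0.21 (limma adjusted p = 0.168) became 0.32 without it (0.0123). Psma2 and Psma4 differed by -0.11 and -0.14, and Psma8, an alpha subunit of the testis that passed the filter through the mutant arrays alone, by 0.08.

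All 7 genes of the constitutive beta ring were tested and none was called, but in each of them mutant replicate 1 was the lowest of the 6 arrays. The median of mutant replicate 1 minus the mean of the other mutant arrays was -0.70 over the beta genes and -0.65 over the 12 genes of both rings, and 9 of these 12 (75.0%) were lowest in that array. Over all tested genes that median was 0.01 with a 5th percentile of -0.56, and 24.8% were lowest there. Psmb2, a subunit that does not cut, had 12.39, 13.08 and 13.20 in mutants and 12.71, 12.74 and 12.74 in controls. Mutant replicates 2 and 3 lay above every control array and mutant replicate 1 below them. Psmb3, another such subunit, had the same layout, with 11.50, 12.45 and 12.35 in mutants and 12.14, 12.22 and 12.09 in controls.

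Without mutant replicate 1, Psmb1, Psmb2, Psmb3 and Psmb4, none of which carries a cutting site, were called higher. Their differences were then 0.28, 0.41, 0.25 and 0.31 (limma adjusted p = 0.00535, 0.00138, 0.0198 and 0.0215), against 0.05, 0.16, -0.05 and 0.16 with all arrays, so that the sign of Psmb3 turned. That array was set apart for values such as these, so leaving it out had to raise the differences. These calls therefore lend no separate support to a rise. The cutting subunits Psmb5, Psmb6 and Psmb7 were not called either way by their brightest probes, at 0.13, 0.14 and -0.08 without that array (limma adjusted p = 0.745, 0.0877 and 0.313). A second Psmb6 probe had the opposite sign, at -0.14 without that array (limma adjusted p = 0.109). With all arrays it was at -0.40 (0.189), with every mutant array below the controls. Psmb7 was read by 4 tested probes, all negative with all arrays, from -0.12 to -0.44, and none was called (smallest adjusted p = 0.0613). The probe with that p, at -0.32, was called lower under the replicate block (0.0327) and also without mutant replicate 1 (0.04) or 2 (0.0427). The dimmest, at -0.44, was called lower with the block (0.0285) and without mutant replicate 3 (0.0495).

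**Figure D2:**
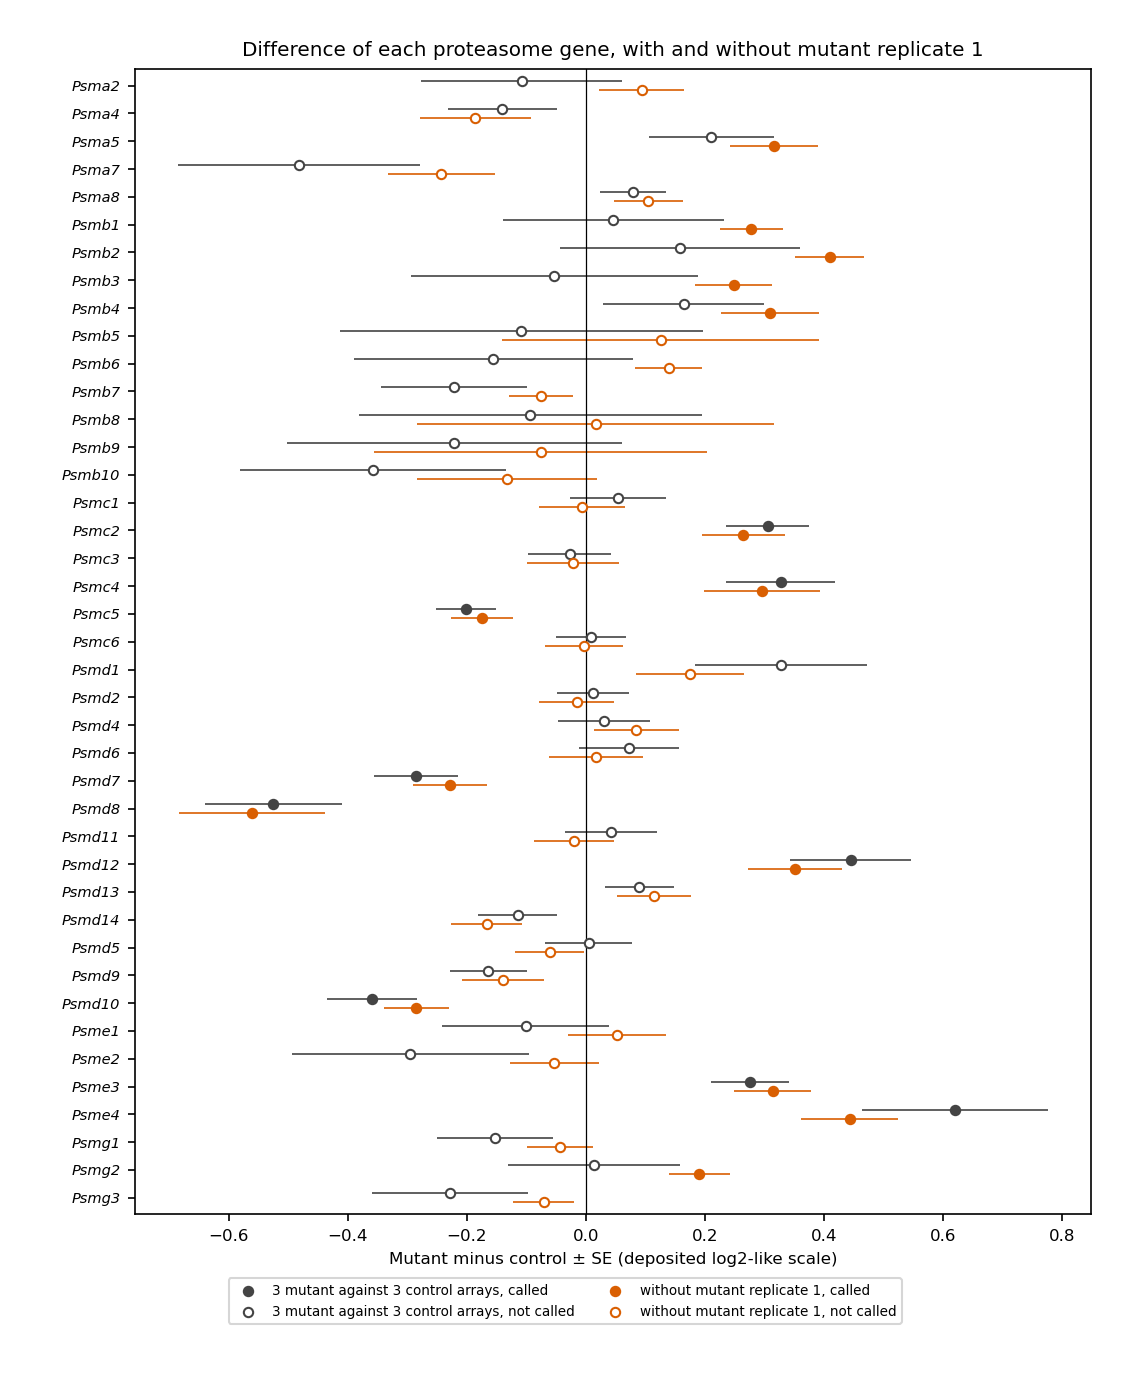
Mutant minus control difference ± SE of each tested proteasome gene on the deposited log2-like scale, over all 6 arrays (grey) and without mutant replicate 1 (orange), with filled points for calls at a limma adjusted p under 0.05. The 9 calls of all arrays are also called without that array, while Psma5, Psmb1 to Psmb4 and Psmg2 are called without it alone.

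Low values of mutant replicate 1 were not a feature of the beta ring alone. In 2 gene families added after seeing the data, that array was the lowest of the 6 in 41 of 49 tested genes of cytosolic ribosomal proteins and in 31 of 33 of mitochondrial complex I, with medians of -0.71 and -0.90 against the other mutant arrays. In the cap base and lid it was lowest in 2 of 16 genes and highest in 6. Whether sample handling or tissue content sets this array apart was not tested, and fewer cells of a type and less RNA per cell cannot be told apart in whole nerve.

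**Figure D3:**
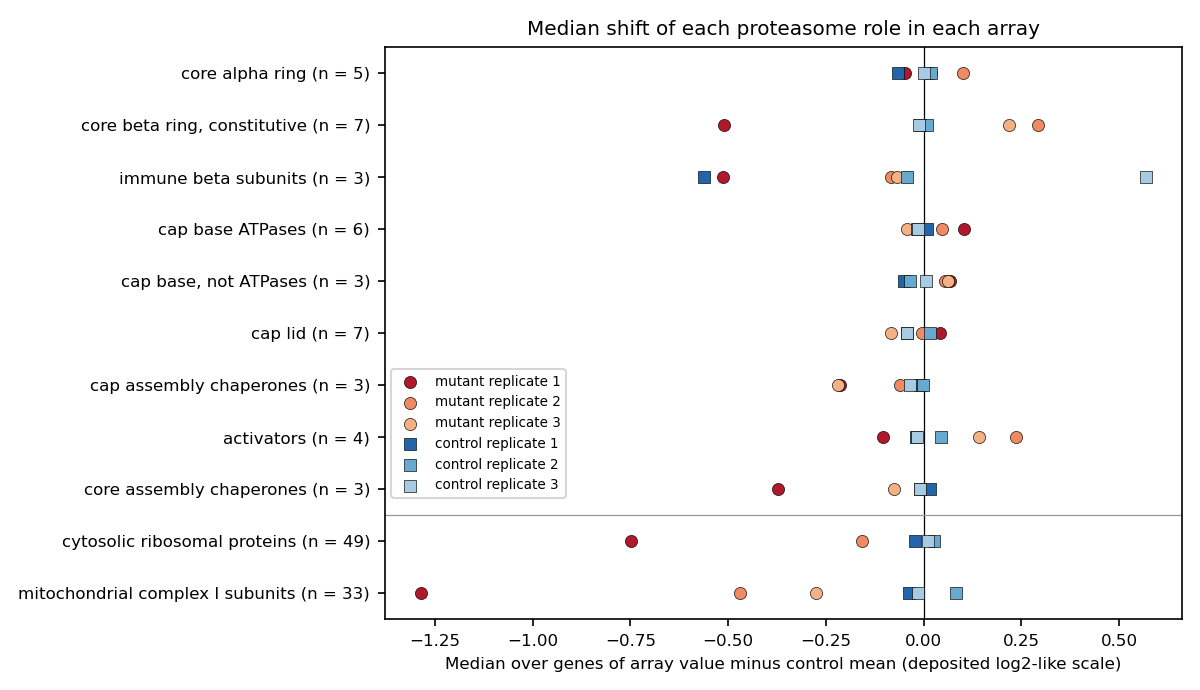
Median over genes of the array value minus the control mean, on the deposited log2-like scale, for each proteasome role and, under the line, for the 2 added families, with circles for mutant and squares for control arrays. Mutant replicate 1 is at -0.51 for the constitutive beta ring, -0.75 for ribosomal proteins and -1.29 for complex I, and at 0.10 for the base ATPases.

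The immune cutting subunits replace Psmb5, Psmb6 and Psmb7 one for one. Psmb8 had 10.07, 10.32 and 10.48 in mutants and 9.81, 10.34 and 11.01 in controls. Psmb9 had 9.03, 9.46 and 9.48 in mutants and 8.98, 9.54 and 10.11 in controls. Psmb10 had 10.86, 11.48 and 11.59 in mutants and 11.40, 11.63 and 11.97 in controls. The groups overlapped in all 3, and control replicate 3 was the highest of all arrays in each. The control SD of 0.602 for Psmb8 and 0.565 for Psmb9 exceeded the size of the difference, while that of 0.287 for Psmb10 did not. The differences of -0.09, -0.22 and -0.36 were not called (limma adjusted p = 0.835, 0.587 and 0.26, and 0 of 3 at an unadjusted p under 0.05). With the replicate block Psmb10 was called lower (0.0377). Psmb11, the thymus-specific form, was near the floor at 8.29 in mutants and 8.23 in controls.

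Psmb5, the chymotrypsin-like subunit, had 9.34, 9.83 and 10.25 in mutants and 9.53, 9.74 and 10.47 in controls. Its control SD of 0.494 resembled those of Psmb8 (0.602) and Psmb9 (0.565) and not those of the other constitutive beta genes, which ran from 0.0137 to 0.0964. The within-array difference of each immune subunit from its constitutive partner was compared between groups. That difference changed by 0.02 for Psmb8 minus Psmb5, by -0.07 for Psmb9 minus Psmb6 and by -0.14 for Psmb10 minus Psmb7 (two-sided exact permutation p = 1, 0.9 and 0.6, n = 3 each, where the smallest possible is 0.1). Within numbered pairs of arrays, mutant minus control, Psmb10 minus Psmb7 was lower in all 3 mutants (-0.01, -0.11 and -0.28), while the other differences had mixed signs. The exact sign-flip test over these pairs, added after seeing the data, gave p = 1, 1 and 0.25 in the same order, where 0.25 is the smallest possible. These changes were smaller than the spread between arrays, whose SD reached 0.264 in mutants and 0.579 in controls. They rest on the brightest probe of each gene. Dimmer tested probes differed by -0.40 for Psmb6, -0.12 to -0.44 for Psmb7 and -0.26 for Psmb10. With another choice of probe the changes of Psmb9 minus Psmb6 and of Psmb10 minus Psmb7 can turn positive.

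**Figure D4:**
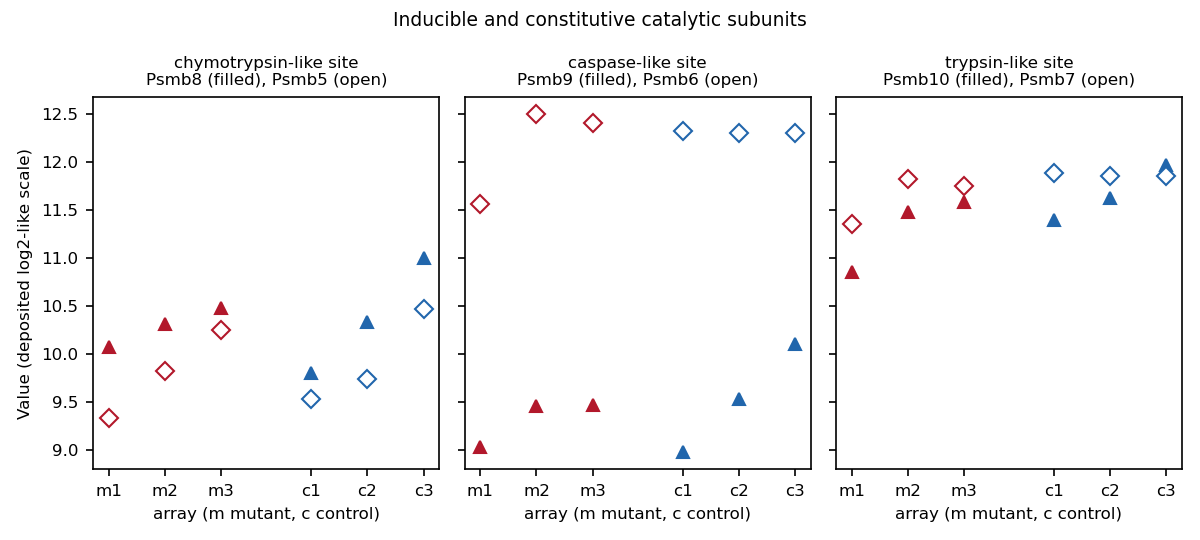
Values of the immune (filled triangles) and constitutive (open diamonds) subunit of each cutting site in the 3 mutant (m, red) and 3 control (c, blue) arrays, on the deposited log2-like scale, where the heights of different probes are not comparable. Psmb5 and the 3 immune genes are highest in control replicate 3, while Psmb6 and Psmb7 are nearly level over the controls and low in mutant replicate 1.

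The base ATPases form the ring that unfolds substrates, and 2 of its 6 genes rose and 1 fell. Over all tested genes 22% were called higher and 17.6% lower, so these counts do not set the ring apart. Psmc2 had 13.82, 13.65 and 13.75 in mutants and 13.53, 13.39 and 13.38 in controls. The groups did not overlap, and the rise of 0.31 (SE 0.070, limma adjusted p = 0.0152) was also called in a second probe, at 0.19 (0.0401, and 0.0807 with the replicate block). Psmc4 had 12.74, 12.79 and 12.50 in mutants and 12.36, 12.44 and 12.25 in controls, a rise of 0.33 (SE 0.092, limma adjusted p = 0.0323). Psmc5 had 11.28, 11.37 and 11.35 in mutants and 11.54, 11.50 and 11.55 in controls, a fall of 0.20 (SE 0.051, limma adjusted p = 0.0219). A second Psmc5 probe did not differ (0.00012, SE 0.076), and the call was lost with the replicate block (0.0551). Psmc1, Psmc3 and Psmc6 differed by 0.05, -0.03 and 0.01.

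Calls in the ATPase ring depended on single arrays and on the variance model. With an intensity trend none of the 3 was called (0.0559 for Psmc2, 0.0575 for Psmc4 and 0.113 for Psmc5), and with all probes tested Psmc4 was not (0.0697). Psmc2 was not called without control replicate 2 (0.0605) or 3 (0.0577). Psmc4 was not called without mutant replicate 2 (0.0978) or control replicate 1 (0.0908), 2 (0.0544) or 3 (0.106). Psmc5 was not called without control replicate 1 (0.0778), 2 (0.0539) or 3 (0.0706).

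The other tested base genes, the scaffold Psmd1 and the ubiquitin-binding Psmd2 and Psmd4, were not called (0 of 3 at an unadjusted p under 0.05 in limma). Psmd1 had 13.41, 13.06 and 12.84 in mutants and 12.88, 12.66 and 12.78 in controls, with mutant replicate 1 the highest array. Its difference of 0.33 (SE 0.144, limma adjusted p = 0.125) was 0.18 without mutant replicate 1 (0.169), and 0.46 and called without mutant replicate 3 (0.0333). Psmd2 and Psmd4 differed by 0.01 and 0.03.

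In the lid, which removes ubiquitin, 1 of 7 tested genes rose and 2 fell, beside 22% and 17.6% of all tested genes. Psmd12, a lid scaffold subunit, had 11.36, 11.17 and 11.00 in mutants and 10.68, 10.84 and 10.67 in controls. Its rise of 0.45 (SE 0.102, limma adjusted p = 0.0154) came with a second, dimmer probe at 0.26 that was not called (0.127). Psmd8 had 10.99, 11.10 and 10.66 in mutants and 11.49, 11.46 and 11.38 in controls. At -0.52 (SE 0.115, limma adjusted p = 0.0131) it was the largest fall, a 0.695-fold level if the scale is plain log2. Psmd7, the structural partner of the deubiquitinase Psmd14, had 12.05, 12.27 and 12.17 in mutants and 12.40, 12.50 and 12.44 in controls.

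Psmd7 fell by 0.29 (SE 0.071, limma adjusted p = 0.0205), and a second probe fell by 0.39 (0.00428), while another, dim one at -0.11 was not called. Psmd14 itself differed by -0.11 (limma adjusted p = 0.23), and Psmd6, Psmd11 and Psmd13 by 0.07, 0.04 and 0.09. Psmd3 was near the floor, at 8.11 in mutants and 8.13 in controls. Psmd12 was not called without control replicate 1 (0.0617) or 3 (0.0597), Psmd8 without control replicate 1 (0.0539), and Psmd7 without control replicate 1 (0.0502), 2 (0.0757) or 3 (0.0619) or with an intensity trend (0.062).

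Psmd5, Psmd9 and Psmd10 are chaperones that help assemble the base. Psmd10, also known as gankyrin, had 10.21, 10.48 and 10.39 in mutants and 10.71, 10.72 and 10.73 in controls. All mutant arrays were lower than the tightly grouped controls, and the fall of 0.36 (SE 0.075, limma adjusted p = 0.0109) had the smallest adjusted p among the genes as read by their brightest probe. A second Psmd10 probe fell by 0.30 (0.0225), and another at -0.23 was not called (0.111). Psmd10 was the gene among the 9 whose call held under all 12 alternatives. Psmd9 was lower in all mutant arrays, at -0.16 (limma adjusted p = 0.0967), and Psmd5 differed by 0.01.

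Among the activators, Psme4 and Psme3 rose. Psme4 encodes PA200, a nuclear activator known for degrading histones in spermatogenesis, and had 12.36, 11.90 and 11.75 in mutants and 11.43, 11.45 and 11.26 in controls. Its rise of 0.62 (SE 0.156, limma adjusted p = 0.0217) was the largest of the proteasome genes, 1.54-fold if the scale is plain log2. Mutant replicate 1 was the highest array, and without it the rise was 0.44 (0.00454). Psme3 encodes PA28 gamma, a nuclear activator that works without ubiquitin, and had 9.64, 9.75 and 9.77 in mutants and 9.46, 9.52 and 9.36 in controls. The groups did not overlap, and it rose by 0.28 (SE 0.065, limma adjusted p = 0.0173).

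Psme4 was not called without control replicate 1 (0.0614), 2 (0.0575) or 3 (0.0799), or with all probes tested (0.0627), and Psme3 without mutant replicate 2 (0.0593) or control replicate 1 (0.0564) or 3 (0.0562). The interferon-induced activator genes Psme1 and Psme2 were not called. Psme1 had 10.68, 11.26 and 11.03 in mutants and 11.01, 11.11 and 11.14 in controls. Psme2 had 9.03, 9.74 and 9.77 in mutants and 9.75, 9.73 and 9.94 in controls. Mutant replicate 1 was the lowest array in both, and the differences of -0.10 and -0.29 (limma adjusted p = 0.623 and 0.297) were 0.05 and -0.05 without it. The core assembly chaperone genes Psmg1, Psmg2 and Psmg3 differed by -0.15, 0.01 and -0.23, were all lowest in mutant replicate 1 and were not called (0 of 3 at an unadjusted p under 0.05). Without that array Psmg2 rose by 0.19 (0.0226). Psmg4 was near the floor.

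Genes around the proteasome were read from lists of 12 partners, 7 regulators, 12 genes of ubiquitin and its activation, 8 of the p97 unfoldase, 11 of class I presentation and 9 of interferon signalling. Nfe2l1, the transcription factor that raises proteasome genes when proteasome activity is short, had 11.94, 11.91 and 11.99 in mutants and 11.71, 11.74 and 11.63 in controls. That rise of 0.25 (limma adjusted p = 0.0121) came with one of 0.45 in its dimer partner gene Mafg (0.00204), while the other 2 of the 4 tested regulators, Nfe2l2 and Maff, were not called. With an intensity trend Nfe2l1 was not called (0.0666). Of 8 tested partners none was called (1 at an unadjusted p under 0.05 in limma). The brightest, the lid subunit gene Sem1, differed by -0.39 and the ubiquitin shuttle gene Ubqln1 by 0.19, and these were -0.09 and 0.06 without mutant replicate 1, which was the lowest array for Sem1 and the highest for Ubqln1. Over the 8 partners that array was lowest in 2 and highest in 3. Without it 1 partner was called higher and 1 lower, which are named for that reason after their values were seen, the shuttle gene Ubqln4 at 0.27 (0.00687) and the core assembly factor gene Pomp at -0.18 (0.0389).

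The counts that follow stand beside 39.6% of all tested genes called, 22% higher and 17.6% lower, and 45.4% without mutant replicate 1. Of 6 tested genes of ubiquitin and its activation, 3 rose (4 without mutant replicate 1, with Ube2k at 0.00955), all of them conjugating enzyme genes, Ube2n by 0.42, Ube2d2a by 0.37 and Ube2d3 by 0.36. Ube2n was not called without mutant replicate 3 (0.0525) or control replicate 1 (0.0757) or 2 (0.0706), and Ube2d2a without control replicate 1 (0.0627). None of the 7 tested genes of the p97 unfoldase was called (3 at an unadjusted p under 0.05 in limma), with Vcp at 0.27 and Ubxn1 at -0.13, though Vcp was called without mutant replicate 2 (0.0157) and the adaptor genes Faf1 and Faf2 with the replicate block (0.0451 and 0.0424). In class I presentation 4 of 9 tested genes rose, and 4 without mutant replicate 1. These were the peptide transporter gene Tap2 by 0.97, the chaperone genes Pdia3 by 0.79 and Calr by 0.54, and the trimming peptidase gene Erap1 by 0.23, which passed the filter through the mutant arrays. Pdia3 was not called with all probes tested (0.0738), without mutant replicate 2 (0.0565) or without control replicate 1 (0.0672), 2 (0.0766) or 3 (0.083), and Erap1 was not called with the replicate block (0.0526) or without mutant replicate 2 (0.0566) or control replicate 1 (0.078) or 2 (0.0688). In interferon signalling 3 of 8 tested genes rose and 1 fell, and without mutant replicate 1 a second fell, Jak2 by 0.23 (0.0129). Irf1, a factor known to induce the immune subunits, had 12.66, 12.29 and 12.22 in mutants and 11.40, 11.75 and 11.88 in controls and rose by 0.71 (limma adjusted p = 0.014). Irf8 and Ifngr1 rose by 0.41 and 0.31, and the kinase gene Jak1 fell by 1.21. Ifngr1 was not called without mutant replicate 2 (0.0766) or 3 (0.05005) or control replicate 1 (0.0792) or 3 (0.0768).

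Markers of the cell types that whole nerve can hold were set beside these results, as the mean value of the tested markers in each array. The 7 tested of 10 macrophage markers averaged 10.32 to 10.50 in mutant arrays and 10.28 to 10.39 in control arrays, with Laptm5 higher (0.51) and Cd14 lower (-0.26), the call of Cd14 being lost without control replicate 1 (0.0757) or 2 (0.0726), and Aif1 being called higher without mutant replicate 1 (0.0117). Fibroblast markers (5 of 5 tested) averaged 14.07 to 14.29 in mutants and 13.61 to 13.73 in controls, with Lum (0.99) and Col1a1 (0.61) higher. Endothelial markers (3 of 4) averaged 9.84 to 9.98 in mutants and 9.63 to 9.98 in controls, and 0 of the 3 was called in limma (0 at an unadjusted p under 0.05), with Pecam1 called higher under the replicate block (0.0313). Skeletal muscle markers (4 of 4) averaged 9.66 to 11.45 in mutants and 11.60 to 12.81 in controls, with Myh1 lower (-0.89). Schwann lineage markers (3 of 4) averaged 10.34 to 10.47 in mutants and 10.74 to 10.87 in controls, with S100b lower (-1.19) and Sox10 level (0.04). Erbb3, near the floor, passed the filter through the mutant arrays and differed by 0.04. The lower average in mutants therefore came from S100b alone. Of the 4 T cell markers, 3 were on the array and none passed the filter. With the replicate block the macrophage gene Adgre1 was called higher (0.0359) and the muscle genes Ckm and Mylpf lower (0.0473 and 0.0137). The part of these cell types in the proteasome differences was not tested.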

How the data were processed

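Normalized signals of 6 Mouse WG-6 version 2 arrays were used as deposited. The authors made these log2-like values with limma and RMA, per the labels' design text, and lumi 1.8.3 is named per the submitters' processing notes. The sources used here name no background correction, and all columns hold 1 distribution, with a median of 8.24. Probes were named from the platform annotation, and all 49 matched genes were found in the RefSeq table of GRCm38.p6.

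The 18420 probes with the highest mean were fitted with limma 3.58.1 in R 4.3.3 (4 residual and 2.63 prior degrees of freedom, no covariate). The number of arrays limits the precision. The fit was tested on simulated data. Deviations of same-numbered arrays correlated at 0.165, 0.155 and 0.224, and those of different-numbered arrays at -0.157 to 0.028. The number comes from the sample titles, which state no pairing. From these correlations the replicate number was also used as a block, a choice made on these same data. Every member gene is named, and of each other list up to 4 called genes, or the 2 brightest. Members and lists were chosen with earlier results of these data known. Alternatives changed the filter, block, trend, centring, probe summary and arrays.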

Additional observations from a re-analysis of the deposited data

How the results depend on the processing

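The proteasome counts were small and moved with the arrays used. The count of genes called higher was 5 of 41, and 3 with all probes tested and with an intensity trend. It ran from 0 (without control replicate 3) to 11 (without mutant replicate 1) when single arrays were left out. Of all tested genes 22% were called higher with all arrays and 24.4% without mutant replicate 1. The count called lower was 4 of 41, and 2 with the trend, and ran from 1 (without control replicate 1) to 4. For all tested genes the share called lower was 17.6% with all arrays and 21% without mutant replicate 1. Fits without an array have fewer degrees of freedom. Without control replicate 1, 2 or 3, 7, 5 and 7 of the 9 calls were lost. Calls over all 18420 tested probes moved as well, from 4598 to 7502 without single arrays. The share of all tested genes was not worked out without a control array or with the trend. These losses therefore cannot be read as particular to the proteasome. The replicate block moved the calls of 3 genes by their brightest probes, Psma7, Psmb10 and Psmc5 (adjusted p = 0.0368, 0.0377 and 0.0551), and of no other member gene, and those of 4 dimmer probes, of Psma7, Psmb7 and Psmc2. The trend lost the calls of Psmc2, Psmc4, Psmc5 and Psmd7. Psmb3 reversed without mutant replicate 1 (0.25) and ran from -0.23 to 0.25 when single arrays were left out. Among genes not called either way, 11 changed sign without that array. With 10000 probes tested 4387 were called, against 6596, since fewer probes were tested, and without single arrays 4598 to 7502. Around the proteasome 8 partner, 4 regulator, 6 ubiquitin, 7 p97, 9 class I and 8 interferon genes were tested. Of these, 12 were called higher (8 to 14 without single arrays) and 1 lower (1 to 3). These counts, too, stand beside 22% and 17.6% of all tested genes with all arrays. For the ranges no such share was worked out, except without mutant replicate 1. Centring the arrays changed no member's call. Changes in the pairs of cutting subunits, read by their brightest probes, stayed within the spread between arrays. The 6 genes near the floor cannot show a change.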

Other observations

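Of 33 tested genes of mitochondrial complex I, a family added after seeing the data, 9 were called lower in mutants and 0 higher, with a median difference of -0.70 (17.6% of all tested genes were called lower and 22% higher, and without mutant replicate 1 21% and 24.4%). Without mutant replicate 1 the median was -0.37, with 21 called lower and 1 higher. Of 49 tested genes of cytosolic ribosomal proteins, 2 were called lower and 0 higher, with a median of -0.29, and without that array the median was -0.07, with 8 lower and 1 higher. Uba6, an enzyme that activates ubiquitin, had 10.66, 10.38 and 13.15 in mutants and 12.81, 13.05 and 13.31 in controls, so that mutant replicate 3 lay among the controls and the other mutant arrays far below. It was not called (limma adjusted p = 0.11), and was called without mutant replicate 3 (0.000274). That call follows from leaving out the mutant array that lay among the controls.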
